A study of Mus musculus with 18 samples.

Results

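Expression of 50 cell cycle and DNA replication genes was followed in mouse dendritic cells by RNA sequencing. The genes were chosen by function: D- and E-type cyclins with their kinases (8 genes), Rb1 and E2F factors (3), the replicative helicase and replication fork (11), nucleotide supply (5), mitotic cyclins with CDK1 and its CKS subunits (6), mitotic kinases with the spindle checkpoint and the anaphase-promoting complex (9), and spindle and chromosome proteins (8). They are 50 of the 23420 genes in the files, and all 50 were among the 11876 genes with enough counts to be tested. The cells were bone-marrow-derived dendritic cells (BMDC) of C57BL/6 mice, grown in GM-CSF, a growth factor for myeloid progenitors, and sorted live with high CD11c, a dendritic cell integrin, after 8 hours of treatment. The wild-type (WT) arms were medium alone, LPS (lipopolysaccharide, a bacterial product sensed by TLR4), IL10 with TGF-β (inhibitory cytokines, called the cytokines here), and LPS with both cytokines. Cells of the genotype Bat3 fl/fl CD11c Cre (cKO) had a medium arm and an LPS arm. There were 3 libraries in each of these 6 groups. In the cKO the recombinase is driven by the CD11c promoter, so deletion is limited to cells that have switched CD11c on. No cKO group received the cytokines, and the WT genotype is not described further in the labels.

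A dividing cell passes a G1 gate when D-type cyclins with CDK4 or CDK6, then cyclin E with CDK2, phosphorylate the retinoblastoma protein and release E2F factors, which switch on genes for DNA synthesis. The MCM helicase then opens the origins, PCNA clamps the polymerases to the template, and ribonucleotide reductase and thymidylate synthase supply the nucleotides. CDK1 with cyclins A and B drives mitosis, and the anaphase-promoting complex ends it. GM-CSF cultures of bone marrow contain cycling precursors beside dendritic cells that have left the cycle, and many of these genes are known to be expressed mainly in dividing cells. In such bulk samples a smaller number of cycling cells and less RNA per cycling cell cannot be told apart.

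Total expected counts ran from 8056822 to 12068761 per library, and the lowest count of any of the 50 genes in any library was 21. Bag6, the current name of Bat3, was at 22.8 to 24.6 CPM (counts scaled to a common library size) in WT medium and at 4.56 to 7.31 CPM in cKO medium, and at 6.31 to 11.3 CPM in cKO with LPS, so some transcript remained. The first replicate of both cKO groups carried Xist (526 and 1010 CPM) and almost no Ddx3y (0.181 and 0.424 CPM), whereas the other 16 libraries had 35.1 to 56.4 CPM of Ddx3y. Xist is made in female cells and Ddx3y lies on the Y chromosome. By these transcripts sex was mixed in both cKO groups, while the WT libraries were all male. The part of sex in the genotype differences was not tested. Within WT medium the third replicate stood apart, with 47 of the 50 genes above their group mean and a summed level of 12 dendritic cell markers of 4430 CPM against 9030 and 10100 CPM. In the WT cytokine group the third replicate had 46 of 50 genes above the group mean, and in cKO medium the third replicate had 8 of 50. Lymphocyte and erythroid markers summed to at most 2.24 CPM in every library.

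Promoters of the cycle genes are known for 3 short elements: the E2F site of genes switched on for DNA synthesis, and the CHR element (cell cycle genes homology region) with CCAAT boxes of genes switched on for mitosis. The 150 bases before the RefSeq start of 5 genes are printed here because their level moved strongly with LPS (Cdk1, Ccnb2, Cdc20 and Mcm6) or differed between genotypes under LPS (Cks2). Each is written 5′ to 3′ on the strand of its gene, ends at the base before the start, and carries in capitals the matches to the CHR element (TTTGAA or TTCGAA), the CCAAT box (CCAAT) and the E2F site (TTTCCCGC, TTTGGCGC, TTTCGCGC or TTTGCCGC), on either strand. The windows lie on GRCm38.p6 at chr10:69352913-69353062 (Cdk1, minus strand), chr9:70421555-70421704 (Ccnb2, minus), chr4:118437344-118437493 (Cdc20, minus), chr1:128359706-128359855 (Mcm6, minus) and chr13:51645082-51645231 (Cks2, plus).
Cdk1: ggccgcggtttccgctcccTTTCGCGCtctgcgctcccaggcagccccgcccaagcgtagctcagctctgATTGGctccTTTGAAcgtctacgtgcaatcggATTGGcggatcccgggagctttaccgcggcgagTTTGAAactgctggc
Ccnb2: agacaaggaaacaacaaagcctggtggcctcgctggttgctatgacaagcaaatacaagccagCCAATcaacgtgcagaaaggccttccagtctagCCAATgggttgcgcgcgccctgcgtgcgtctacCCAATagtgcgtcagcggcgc
Cdc20: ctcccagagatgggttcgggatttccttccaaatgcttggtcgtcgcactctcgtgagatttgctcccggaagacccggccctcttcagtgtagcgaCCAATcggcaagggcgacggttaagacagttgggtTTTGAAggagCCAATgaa
Mcm6: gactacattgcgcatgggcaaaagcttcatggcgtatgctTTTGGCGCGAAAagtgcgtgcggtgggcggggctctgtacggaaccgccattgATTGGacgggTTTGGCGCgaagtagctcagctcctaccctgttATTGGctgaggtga
Cks2: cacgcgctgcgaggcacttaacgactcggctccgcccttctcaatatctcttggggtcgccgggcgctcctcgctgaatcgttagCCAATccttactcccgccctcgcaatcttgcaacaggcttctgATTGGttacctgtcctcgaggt
The Cdk1 stretch held 2 CHR elements, 2 CCAAT boxes and 1 E2F site, and that of Cdc20 held 1 CHR element between 2 CCAAT boxes. The Ccnb2 stretch held 3 CCAAT boxes and neither CHR spelling, but the longer window of Ccnb2 counted below held a CHR element outside this stretch. Mcm6, a subunit of the helicase, had 3 E2F sites, of which 2 overlap each other, and 2 CCAAT boxes. The Cks2 stretch had 2 CCAAT boxes alone. A match is a description of letters and not a measured binding site.

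RefSeq gave a window from 250 bases before to 50 after the start for 39 of the 50 genes, with 45 windows in all. The CCAAT box stood in 71.1% of these windows, against 37.4% of all 32851 windows of the same length. CHR elements stood in 37.8%, against 19.2%, and E2F sites in 22.2%, against 2.26%. The elements differed between role groups, though not always along the line of DNA synthesis and mitosis. Of 8 windows of the mitotic kinase, checkpoint and anaphase-promoting complex group, 7 held a CHR element together with a CCAAT box and 0 held an E2F site. In the helicase and replication fork group, 7 of 13 windows held an E2F site and 2 of 13 a CHR element. Of 5 nucleotide supply windows 0 held an E2F site and 0 a CHR element. Of 5 mitotic cyclin windows 1 held an E2F site and 3 a CHR element. Of 5 spindle and chromosome windows 0 held an E2F site and 4 a CHR element.

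The level of the set differed more between treatments than between genotypes. Together the 50 genes took 0.455% to 0.569% of all counts in WT medium, 0.193% to 0.242% in WT with LPS, 0.312% to 0.437% with the cytokines and 0.122% to 0.136% with LPS and the cytokines. They took 0.448% to 0.512% in cKO medium and 0.194% to 0.208% in cKO with LPS. The mean CPM was lowest in WT given LPS with the cytokines for 42 of the 50 genes. It was highest in WT medium for 20, in cKO medium for 16 and in cKO with LPS for 8. The 8 that peaked in cKO with LPS on this CPM scale were Ccnd1, Cdk6, Ccne2, Rb1, Gins2, Tyms, Cks2 and Cenpa. On the per-length TPM scale, which allows levels of different genes to be compared, Ccnd3 (276 ± 6.3 TPM, SD, n = 3) and Cdk4 (269 ± 26.8) were the highest of the set in WT medium. E2f2 (7.66 ± 0.859) and Rb1 (10.4 ± 1.78) were the lowest there. For Rb1, Gins2, Tyms, Cks2 and Cenpa the TPM log2 change with LPS in cKO was -0.08, -0.02, -0.27, -0.02 and -0.07. Their peak in cKO with LPS thus depends on the scale.

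**Figure D1:**
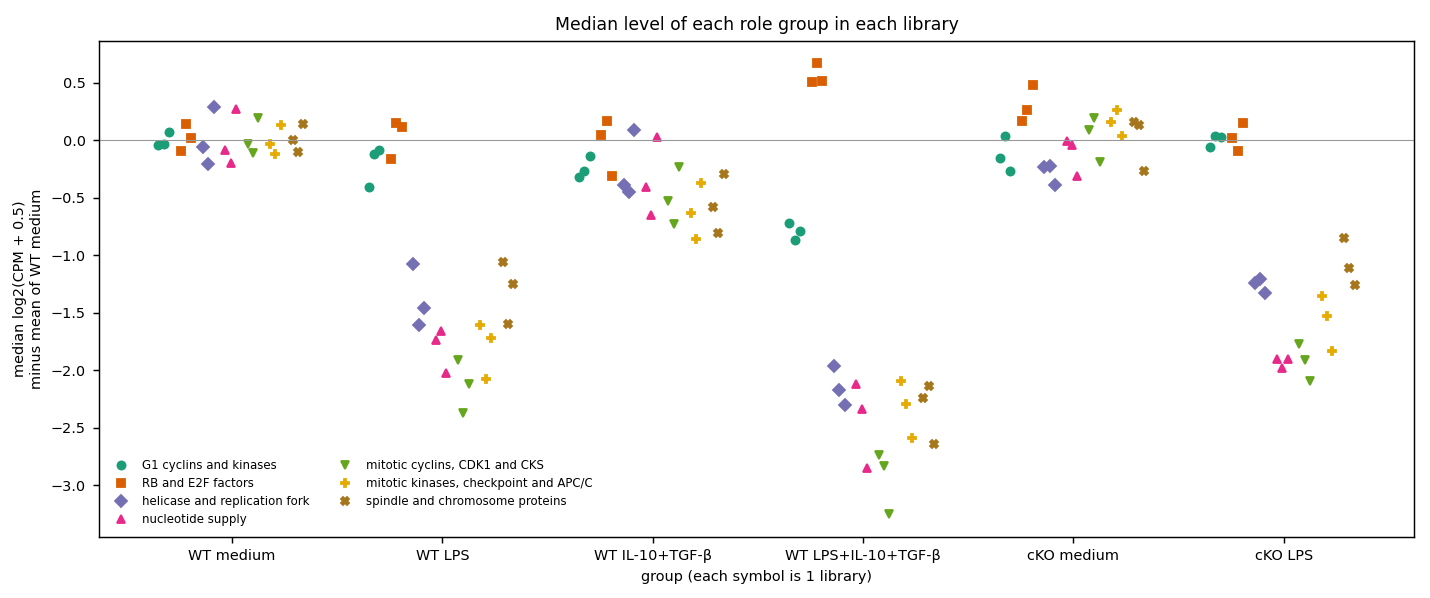
Median log2(CPM + 0.5) of the genes in each of 7 role groups, in each of 18 libraries, with the mean of WT medium set to 0. Each symbol is 1 library. The replication and mitosis groups sit low in the 3 groups that received LPS and lowest with LPS and the cytokines, and the RB and E2F group (3 genes) does not follow them.

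In WT cells LPS lowered most of the machinery of replication and mitosis within 8 hours, and raised cyclin D2. Of the 50 genes 41 fell and 2 rose, where a change was called at an adjusted p under 0.05. Across all 11876 genes 58.7% were called in this comparison, 28.9% lower and 29.8% higher. The median log2 change was -1.37 over the 50 genes, a 2.59-fold lower level, and 0.01 over all genes. All 3 LPS libraries lay below all 3 medium libraries for 41 of the 50, against 30.9% of all genes. Of the 43 calls, 40 held when any 1 library was left out. The call of Ccnd3 ended without the third (-0.22) or second (-0.21) WT medium or the first WT LPS replicate (-0.16), that of Cks2 without the third replicate of either group (-0.31 in medium, -0.34 in LPS), and that of Bub1 without the third (-0.33) or first (-0.41) WT medium or the second WT LPS replicate (-0.29).

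G1 cyclins and kinases went separate ways under LPS. Ccnd2, a D-type cyclin, was at 163, 170 and 140 CPM in medium and at 552, 400 and 448 CPM with LPS, a 2.96-fold rise (log2 change 1.57 ± 0.12 SE, adjusted p = 8.5e-10). The groups did not overlap, as for 32.2% of all genes in that direction. Its partner kinase Cdk4 fell, with a log2 change of -1.33 ± 0.1, and so did Cdk2 (-0.96 ± 0.09) and its cyclin Ccne1 (-0.67 ± 0.13). Ccnd3 was at 282, 292 and 288 CPM in medium and at 224, 248 and 267 CPM with LPS (-0.22 ± 0.08). That is a small fall beside the rise of Ccnd2. Ccnd1 was at 25.1, 21.4 and 25.7 CPM in medium and at 17.3, 29.9 and 22.9 CPM with LPS, where the libraries overlapped and no change was called (-0.04 ± 0.16). Cdk6 (57, 61.6 and 55.2 CPM, then 60.8, 63.2 and 67.3 CPM; log2 0.14 ± 0.16) and Ccne2 (-0.01 ± 0.16) were not called either.

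The gatekeepers downstream showed no common direction. Rb1, which holds E2F factors in check, was at 21.4, 30.7 and 26.2 CPM in medium and at 32.2, 49 and 36.5 CPM with LPS, a 1.5-fold rise (log2 0.59 ± 0.15, adjusted p = 0.0026). On the TPM scale, where the median of all genes moved by -0.19, that change was 0.3 and was not called. E2f1, an activating E2F, was at 27.7, 30.4 and 24.7 CPM and then at 24.5, 30.6 and 29.9 CPM, with full overlap (0.04 ± 0.14). E2f2, another activator, fell to a level 2.92-fold lower (-1.55 ± 0.21).

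Replication genes fell nearly throughout. Of 11 helicase and fork genes 10 fell, with a median log2 change of -1.34. Mcm5, a helicase subunit, was at 106, 84.6 and 145 CPM in medium and at 44.5, 35.4 and 30.9 CPM with LPS. All LPS libraries lay below all medium libraries, although the third medium replicate was far above the other two. Mcm2, Mcm3, Mcm4, Mcm6 and Mcm7 fell, with log2 values between -1.9 and -1.14. Pcna, the sliding clamp, fell less (111, 112 and 134 CPM, then 75.1, 66.4 and 68.8 CPM; log2 -0.76 ± 0.1). The PCNA-associated factor 2810417H13Rik, named Pclaf in RefSeq, had the deepest fall of the group (-2.27 ± 0.16). Lig1, which seals Okazaki fragments, and Uhrf1, which carries DNA methylation across the fork, had log2 changes of -1.24 ± 0.14 and -1.08 ± 0.16. Gins2, a subunit of the GINS complex that joins the helicase, was not called (-0.13 ± 0.18).

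In nucleotide supply 4 of 5 genes fell, and thymidylate synthase did not. Rrm2, the regulated subunit of ribonucleotide reductase, was at 134, 124 and 174 CPM in medium and at 42.2, 18.6 and 29.6 CPM with LPS (-2.26 ± 0.27, adjusted p = 3.8e-06). Rrm1, its catalytic partner, fell with a log2 change of -1.43 ± 0.15, the thymidine kinase Tk1 with -1.87 ± 0.15, and Dut, which clears dUTP, with -2.61 ± 0.24. Tyms was at 55.3, 54 and 72.8 CPM in medium and at 58.9, 52.4 and 59.8 CPM with LPS. These libraries overlapped (-0.09 ± 0.13).

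The mitotic cyclin group held the deepest falls, with all 6 genes called and a median log2 change of -2.2. Ccnb2, a cyclin B, was at 107, 98.8 and 104 CPM in medium and at 14.5, 14.8 and 14 CPM with LPS, a log2 change of -2.84 ± 0.16 (adjusted p = 1.0e-11) and the largest fall of the 50. Cdk1, the mitotic kinase, was at 92, 89.3 and 100 CPM and then at 27, 23.5 and 25.2 CPM. Ccnb1 was at 121, 104 and 142 CPM and then at 32.7, 14.1 and 23.5 CPM. Each of these groups was clear of its control. Cks1b and Cks2, small CDK-binding subunits of like sequence, differed: Cks1b was at 68.6, 65.2 and 86.3 CPM and then at 15.7, 19.8 and 18 CPM (-2.04 ± 0.13), and Cks2 changed by only -0.4 ± 0.14.

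All 9 mitotic kinase, checkpoint and anaphase-promoting complex genes fell. Birc5, or survivin, a subunit of the chromosomal passenger complex, was at 68, 66.5 and 84.2 CPM in medium and at 14, 13.3 and 13.8 CPM with LPS (-2.41 ± 0.15, adjusted p = 2.5e-11). Plk1, a kinase of mitotic entry, was at 51.1, 49.3 and 57.3 CPM and then at 10.4, 6.88 and 11.8 CPM. Bub1, a kinase of the spindle checkpoint, moved least (-0.42 ± 0.15). The others were Aurka, Aurkb, the checkpoint kinase Bub1b, the passenger subunit Cdca8, and the anaphase-promoting complex activator Cdc20 and ubiquitin-conjugating enzyme Ube2c, between -2.3 and -1.22.

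Among spindle and chromosome proteins 7 of 8 fell. Stmn1, a microtubule destabiliser, was at 105, 106 and 133 CPM in medium and at 23.9, 21.7 and 23.7 CPM with LPS (-2.31 ± 0.16, adjusted p = 1.3e-10). Top2a, the topoisomerase that untangles chromosomes, was at 176, 161 and 182 CPM and then at 80.2, 49.9 and 71.4 CPM. Mki67, which encodes the proliferation antigen Ki-67, was at 120, 126 and 155 CPM and then at 80.8, 102 and 82.6 CPM, a 1.51-fold lower level (-0.59 ± 0.14). The common proliferation marker thus fell much less than most of the set. The kinesins Kif11 and Kif20a and the spindle proteins Tpx2 and Nusap1 fell, with log2 values between -2.27 and -1.13. Cenpa, the histone of the centromere, was not called (-0.17 ± 0.14).

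**Figure D2:**
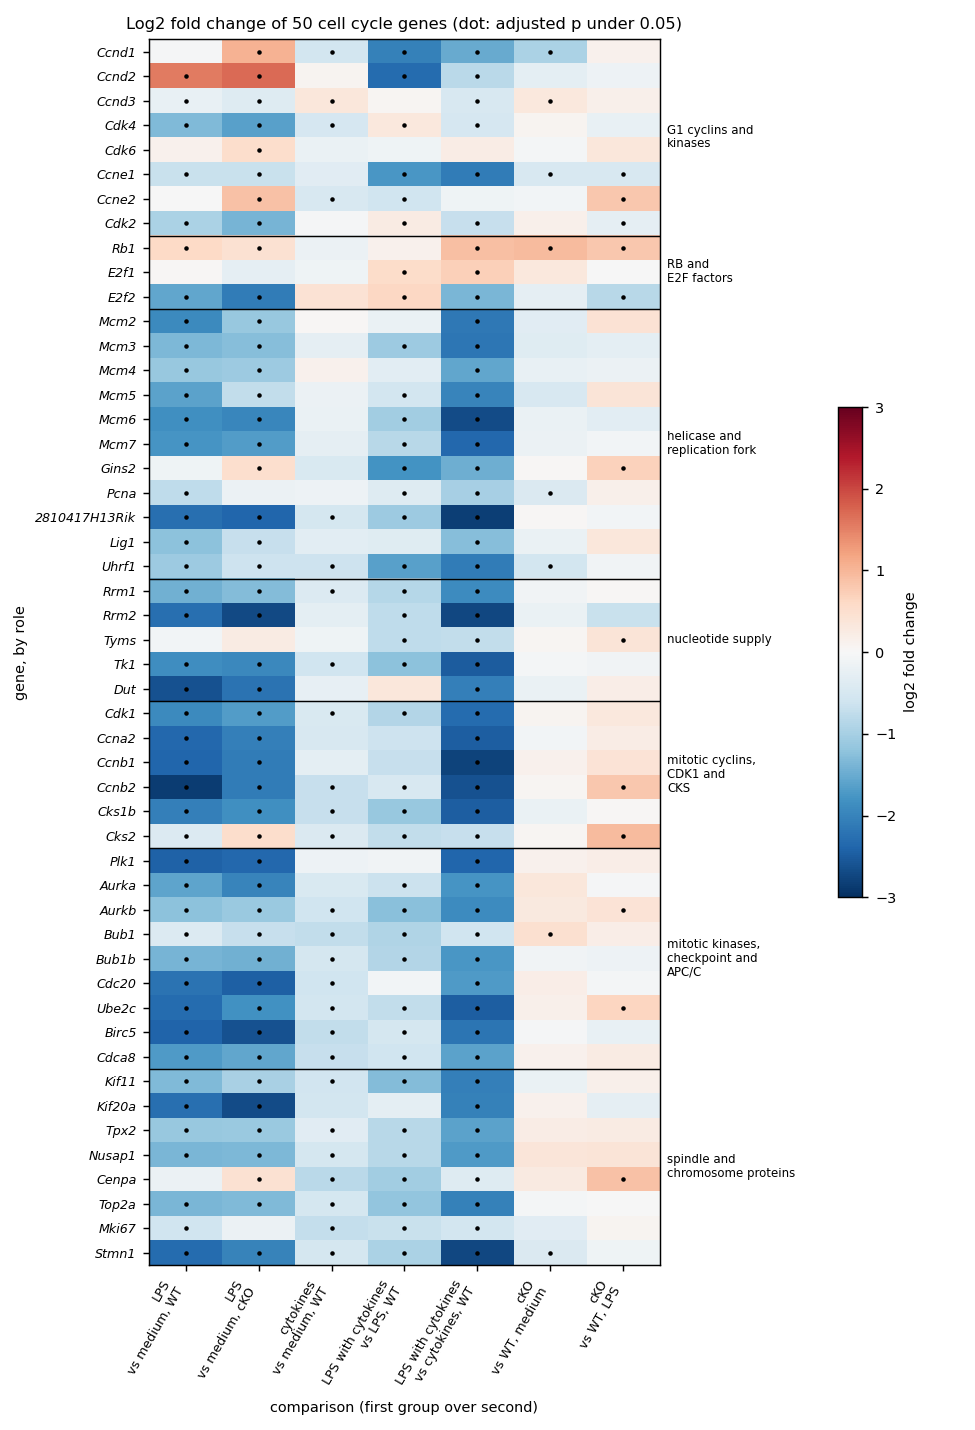
Log2 fold change of each of the 50 genes (rows, grouped by role) in 7 comparisons (columns); blue is lower and red higher in the first-named group, and a dot marks an adjusted p under 0.05. The LPS columns are blue in the replication and mitosis rows, Ccnd2 is red with LPS alone and blue where the cytokines were added to LPS, and the genotype columns are pale.

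Markers of other cells moved in this comparison too. The summed level of granulocyte precursor markers was 919 to 1480 CPM in WT medium and 2220 to 4420 CPM in WT with LPS, and that of stem and progenitor markers was 18.3 to 34.5 CPM and then 12.3 to 16.3 CPM. Dendritic cell markers summed to 4430 to 10100 CPM and then to 7940 to 8770 CPM. Most single markers of the first 2 lists were not called. Of 13 granulocyte precursor markers 3 rose and 0 fell, and of 5 stem and progenitor markers 0 rose and 1 fell. Of 11 dendritic cell markers 2 rose and 2 fell, and of 10 macrophage markers 5 rose and 5 fell. Their part in the fall of the cycle genes was not tested.

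In cKO cells LPS gave a fall of the same order. Of the 50 genes 38 fell and 8 rose, where 64.1% of all genes were called, 34.8% lower and 29.3% higher. The median log2 change was -1.31, against -0.09 over all genes. On the TPM scale, where the median of all genes moved by -0.47, 41 fell and 2 rose, and with upper-quartile scaling 41 fell and 5 rose. The smallest p-values belonged to Cdk4, Birc5, Cdk2 and 2810417H13Rik. Cdk4 was at 198, 183 and 210 CPM in medium and at 64.9, 59.4 and 66.8 CPM with LPS (-1.63 ± 0.1, adjusted p = 1.1e-11). Birc5 was at 69.9, 73.2 and 71.4 CPM and then at 11.5, 12.2 and 11.4 CPM, close to its levels in WT. Cdk2 went from 64.9, 59 and 59.2 CPM to 23.8, 22.5 and 23.7 CPM (-1.39 ± 0.1). 2810417H13Rik went from 132, 114 and 116 CPM to 23.9, 22.3 and 22.9 CPM. For these 4 genes no LPS library reached the medium libraries, as for 36.4% of all genes in that direction. Of 13 granulocyte precursor markers 8 fell and 1 rose with LPS in cKO cells (median log2 change -1.34), and of 5 stem and progenitor markers 2 fell and 0 rose (median -0.8). Their summed levels were 1650 to 4170 CPM in medium and 2100 to 3730 CPM with LPS for the first list, and 31.8 to 37.3 CPM and 15.5 to 18 CPM for the second. Their part in the fall of the cycle genes was not tested.

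The 8 genes called higher with LPS in cKO cells included 4 of the 8 G1 cyclins and kinases. Ccnd2 was at 119, 133 and 135 CPM in medium and at 402, 411 and 441 CPM with LPS, a 3.24-fold rise (log2 1.7 ± 0.12). Ccnd1 was at 10.9, 15.1 and 11 CPM and then at 25.3, 25.9 and 25.1 CPM, a 2.06-fold rise (1.04 ± 0.17). Ccne2, an E-type cyclin, rose from 22.5, 24.5 and 18 CPM to 45.7, 32.7 and 40.9 CPM (0.88 ± 0.16). The Ccne2 change was 0.32 on the TPM scale and not called there. Cdk6 was at 45.2, 78.8 and 42.1 CPM and then at 81.5, 75.3 and 83.1 CPM (0.53 ± 0.16), with the second medium replicate inside the LPS range, and its call ended with the first cKO library of each treatment left out (0.39) and on the TPM scale (0.06). Rb1 (0.45), Gins2 (0.51), Cks2 (0.52) and Cenpa (0.46) rose on the count scale but had log2 changes of -0.08, -0.02, -0.02 and -0.07 on the TPM scale, so their direction depends on how libraries are scaled. Gins2 also lost its call without the third cKO LPS replicate (0.48) or the third cKO medium replicate (0.45). Not called were Pcna (84.7, 89.4 and 90.5 CPM, then 77.2, 75.8 and 81.2 CPM), Mki67 (96.1, 126 and 95.9 CPM, then 105, 91.5 and 85.7 CPM), E2f1 (30.9, 33.1 and 38.5 CPM, then 27.9, 25.9 and 30.6 CPM) and Tyms (59.6, 57.2 and 71.2 CPM, then 79.2, 77.2 and 66.9 CPM), with log2 values of -0.18, -0.18, -0.28 and 0.25.

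The difference between the LPS responses of the genotypes was tested as an interaction, and it was called for 16% of the 50 against 17.4% of all genes. It was higher in cKO for 7 and lower for 1 of the 50, against 7.33% and 10.1% of all genes. Among markers it was lower for 4 of 13 of the granulocyte precursor list (median -2.14) and higher for 3 and lower for 1 of 10 of the macrophage list, and their part in these values was not tested. Under RLE scaling the split was 8 and 0, with DESeq2 10 and 0, and on the TPM scale, where the median of all genes moved by -0.25, 2 and 4. Of the 8 calls, 4 held when any 1 library was left out. These were Ccnd1 (1.09 ± 0.24, adjusted p = 0.004), Cks2 (0.91 ± 0.2, adjusted p = 0.0037), Ccne2 (0.89 ± 0.22, adjusted p = 0.0095) and Pcna (0.59 ± 0.14, adjusted p = 0.0065). On the TPM scale the calls of Ccne2 (0.56) and Pcna (0.3) ended, and those of Ccnd1 and Cks2 remained. Cks2 was at 49.2, 50.6 and 59.5 CPM in WT medium and at 41, 43.3 and 36.6 CPM in WT with LPS, and at 57.9, 57.9 and 48.8 CPM in cKO medium and 75.4, 86.5 and 73.5 CPM in cKO with LPS. Its libraries thus moved down in one genotype and up in the other on this scale. The other 4 calls were Ccnb2 (0.74), Cenpa (0.62), Mcm5 (0.85) and Cdk2 (-0.43), which ended without 5, 7, 10 and 7 of the 12 libraries respectively, each left out alone, with log2 values of 0.64 to 0.75, 0.49 to 0.64, 0.62 to 0.97 and -0.43 to -0.36 in those fits. With the first cKO library of each treatment left out, 4 of the 50 were called, without the third WT LPS replicate 4, and without the first WT LPS, the first cKO LPS or the third cKO medium replicate 5 each.

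**Figure D3:**
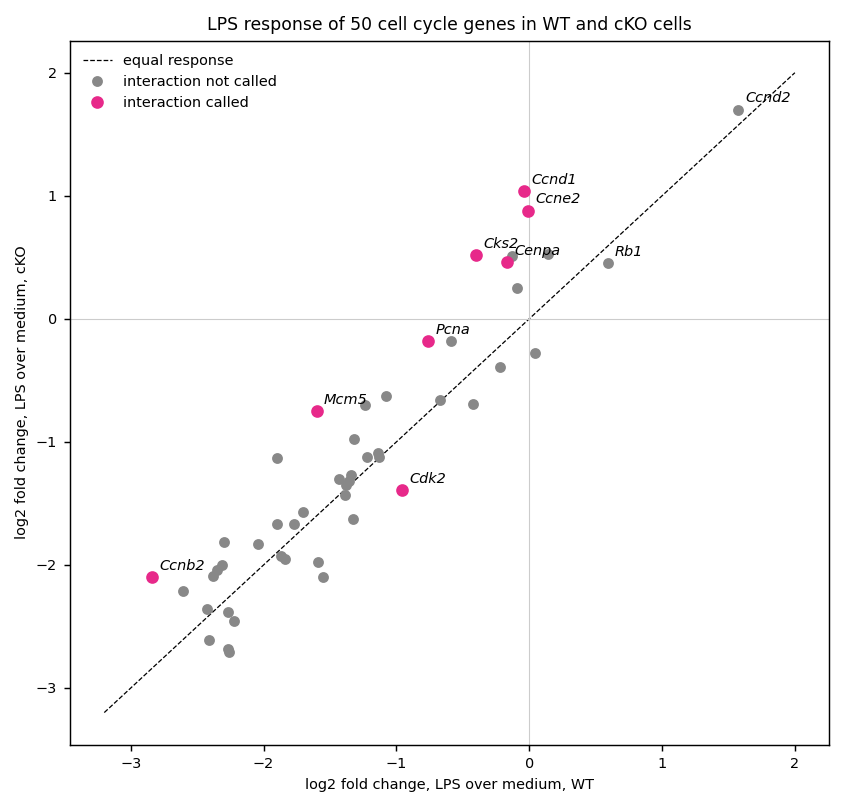
Log2 fold change of LPS over medium in WT cells (x axis) and in cKO cells (y axis) for the 50 genes, 1 point each; the dashed line marks an equal response and pink points a called interaction. Most points lie near the line in the lower left, and Ccnd1, Ccne2, Cks2 and Cenpa lie above it with values over 0 in cKO cells.

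Between genotypes in medium the set as a whole hardly moved. Of the 50 genes 3 were higher and 5 lower in cKO, or 16%, where 30.2% of all genes were called. The median log2 difference was -0.05, against 0 over all genes. Rb1 was at 52, 48.4 and 50.5 CPM in cKO and at 21.4, 30.7 and 26.2 CPM in WT, a 1.93-fold difference (log2 0.95 ± 0.15, adjusted p = 1.3e-04). Ccnd1 was at 10.9, 15.1 and 11 CPM against 25.1, 21.4 and 25.7 CPM in WT, a 1.95-fold lower level (-0.96 ± 0.17, adjusted p = 2.7e-04). Neither pair of groups overlapped; over all genes 20.1% had all 3 cKO libraries above and 19.3% all 3 below the WT libraries. Pcna was at 84.7, 89.4 and 90.5 CPM against 111, 112 and 134 CPM (-0.43 ± 0.1), and Ccnd3 at 368, 365 and 343 CPM against 282, 292 and 288 CPM (0.32 ± 0.08). Ccne1 was lower (-0.49 ± 0.13). The calls of Uhrf1 (-0.55), Stmn1 (-0.44) and Bub1 (0.47) rested on single libraries: they ended without 2, 3 and 4 libraries respectively, the third WT medium replicate among them for Uhrf1 (-0.42) and Stmn1 (-0.32). With the replicate number as a block and only these groups fitted, 5 of the 50 were called.

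In medium 8 of the 50 genes had all cKO libraries above and 6 all cKO libraries below the WT libraries, called or not. Over all genes the shares were 20.1% and 19.3%. Cdk1, Ccnb1, Top2a, Plk1, Rrm2, Mki67 and Mcm5 were among those that overlapped. Cdk1 was at 107, 111 and 82.8 CPM in cKO, around the 89.3 to 100 CPM of WT. Ccnb1 was at 147, 148 and 106 CPM, Top2a at 179, 186 and 135 CPM, and Plk1 at 58.3, 62.8 and 51.2 CPM in cKO. The third cKO replicate was the lowest for each. Rrm2 was at 140, 119 and 113 CPM in cKO. Stmn1 was at 79.4, 92.8 and 81.2 CPM in cKO, below all 3 WT libraries. Mki67 (-0.33 ± 0.14) and Mcm5 (86.8, 87.7 and 66.9 CPM in cKO; -0.47 ± 0.19) were not called.

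Rn45s, a ribosomal RNA precursor, took 1.28% to 4.01% of counts in cKO medium and 4.48% to 8.88% in the other groups. Without it 8 of the 50 genes were called, 3 higher and 5 lower, the same numbers. The summed level of granulocyte precursor markers was 1650 to 4170 CPM in cKO medium against 919 to 1480 CPM in WT medium, with 11 of 13 tested markers called higher. Their part in the differences of the cycle genes was not tested.

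With LPS the genotypes differed at a small number of cycle genes, mostly upward in cKO. Of the 50 genes 9 were higher and 3 lower in cKO, or 24%, where 35.3% of all genes were called. The median log2 difference was 0.14, against -0.05 over all genes. On the TPM scale the median of all genes was -0.31, and 5 of the 50 were called higher and 17 lower, so most of the direction here depends on the scaling. Cks2 was at 75.4, 86.5 and 73.5 CPM in cKO and at 41, 43.3 and 36.6 CPM in WT, a 1.95-fold difference (log2 0.96 ± 0.14, adjusted p = 4.0e-05). Cenpa was at 132, 124 and 124 CPM against 54.9, 81.9 and 67.7 CPM (0.89 ± 0.14, adjusted p = 8.3e-05). Rb1 was at 76.7, 61.3 and 67.7 CPM against 32.2, 49 and 36.5 CPM (0.81 ± 0.15), and Ccne2 at 45.7, 32.7 and 40.9 CPM against 22.5, 22.3 and 23.2 CPM (0.81 ± 0.16). These 4 had the smallest p-values of the comparison, and in none of them did the groups overlap. Over all genes 22.8% had all 3 cKO libraries above and 26.4% all 3 below the WT libraries. All 4 were also called higher on the TPM scale. Ccnb2 was higher by 0.8 ± 0.17. Gins2 (0.68 ± 0.18) and Ube2c (0.65 ± 0.18) were higher too, but not on the TPM scale (0.33 and 0.27).

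The other differences under LPS were weaker. Tyms (0.38 ± 0.13) was at 79.2, 77.2 and 66.9 CPM in cKO against 58.9, 52.4 and 59.8 CPM, and Aurkb differed by 0.4 ± 0.15; on the TPM scale they were 0.02 and 0.03 and not called. Ccne1 (-0.48), Cdk2 (-0.28) and E2f2 (-0.84) were lower in cKO. The calls of Tyms, Aurkb, Ccne1, Cdk2 and E2f2 ended without 3, 5, 2, 5 and 3 single libraries respectively, the first cKO LPS replicate among them for each (0.36, 0.4, -0.38, -0.27 and -0.74). Without the first cKO LPS replicate, or with the first cKO library of each treatment left out, 7 were higher and 0 lower. Cdk1 was at 31.8, 29.6 and 33.1 CPM in cKO with LPS, Ccnb1 at 37.8, 32.3 and 24.3 CPM, Top2a at 82.3, 64.4 and 52.9 CPM, Plk1 at 12.3, 13.9 and 7.23 CPM, Mcm5 at 53.7, 46.9 and 43.1 CPM and Stmn1 at 24.5, 19.8 and 19.1 CPM, and none of these was called. Rrm2 (22.3, 18.4 and 16.2 CPM in cKO; -0.66 ± 0.29) was not called. Macrophage markers summed to 3890 to 4000 CPM in cKO with LPS and to 2620 to 2800 CPM in WT with LPS. Of the 10 markers 5 were called higher and 2 lower in cKO (median log2 difference 0.24), and their part in these differences was not tested.

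**Figure D4:**
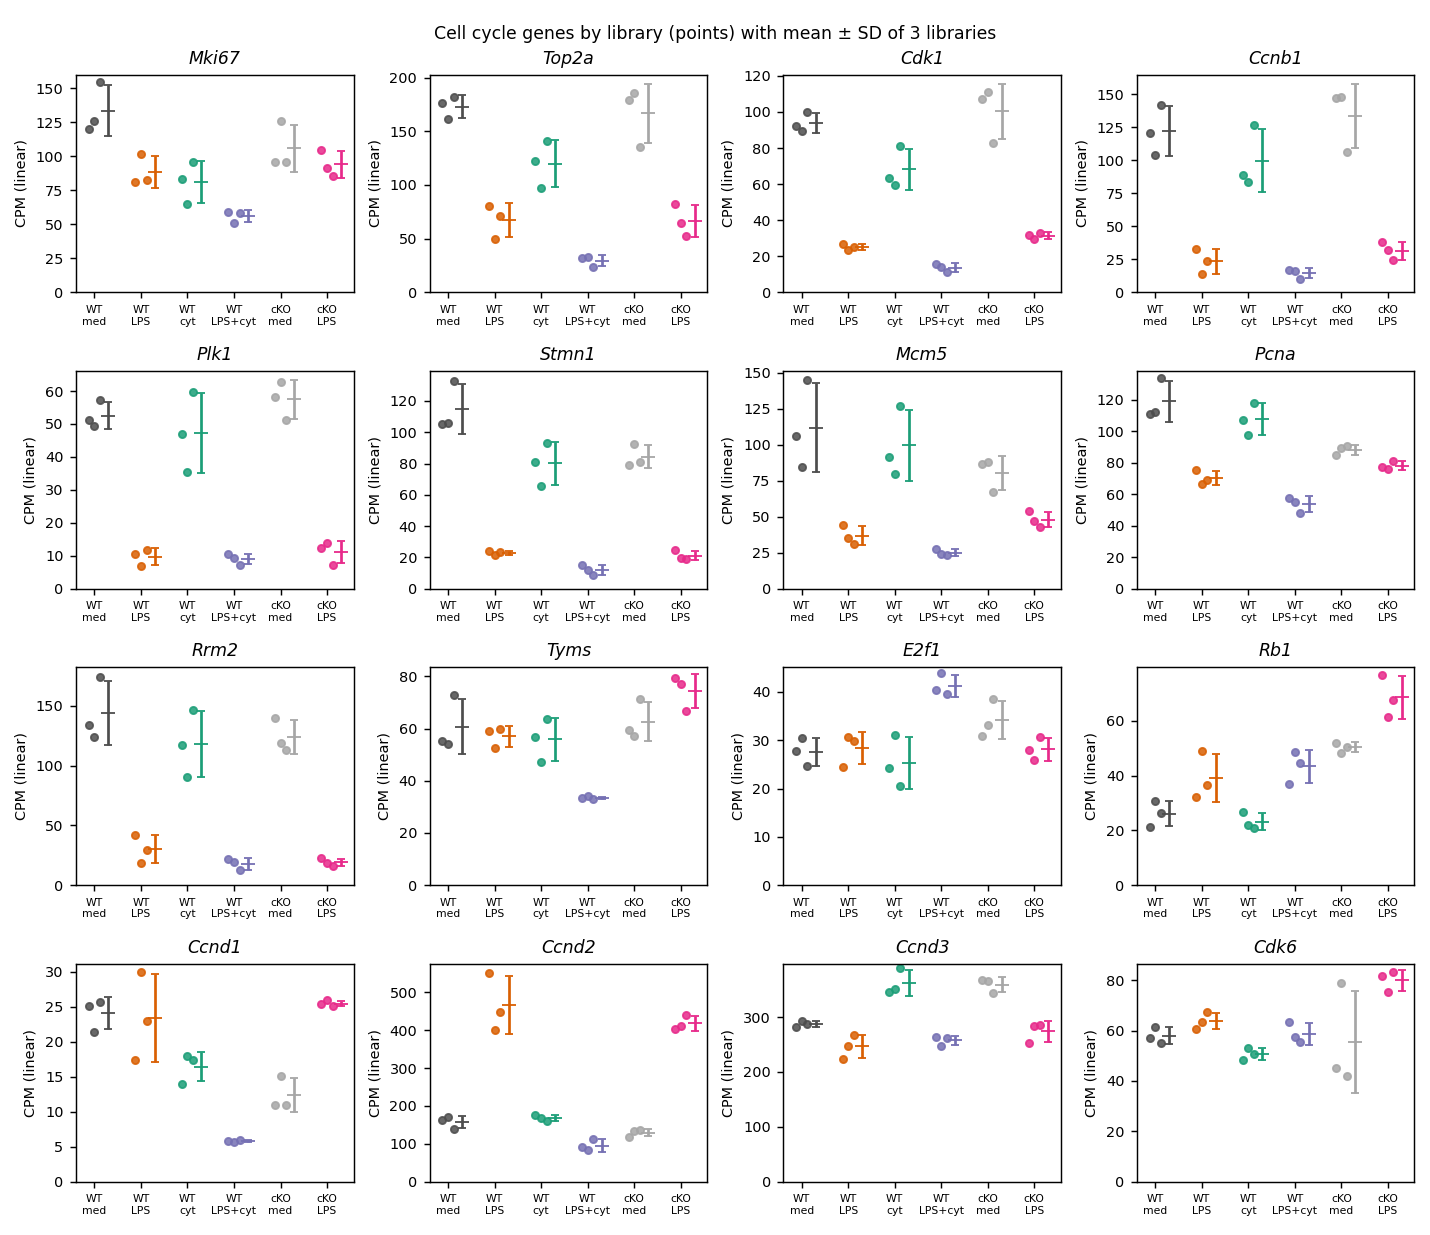
Level (CPM, linear axes from 0) of 16 genes in each of 18 libraries (points) with mean ± SD of the 3 libraries per group. Mitotic genes such as Cdk1, Ccnb1 and Plk1 separate the groups with LPS from those without it, Ccnd2 is high with LPS alone, and Rb1 is higher in both cKO groups than in the matching WT groups.

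IL10 with TGF-β and no LPS gave falls mainly among mitotic genes, and the number of genes called lower depended on the fit and on single libraries. Of the 50 genes 25 fell and 1 rose, where 35.2% of all genes were called, 16.9% lower and 18.3% higher. The median log2 change was -0.46, a 1.37-fold lower level, against 0 over all genes. Libraries of these groups with the same replicate number deviated together (r 0.35, 0.21 and 0.44). The labels do not say that the numbers pair libraries, and differently numbered libraries were not compared. With the number as a block and only these groups fitted, an alternative chosen after seeing the data, 38 of the 50 fell and 2 rose. In that fit 21.9% of all genes were called lower and 20.5% higher. It changed both the block and the groups fitted, so their parts in the added calls cannot be told apart here. Without the second cytokine replicate 14 were called, without the third WT medium replicate 17, and 13 of the 26 calls held whichever library was left out.

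Among spindle and chromosome proteins 7 of 8 fell, and of the mitotic kinase, checkpoint and anaphase-promoting complex genes 7 of 9. Many of these calls rested on single libraries. The calls of Kif11, Tpx2, Nusap1, Top2a and Stmn1 ended without 5, 4, 4, 5 and 1 single libraries respectively. Those of Cdc20 and Ube2c ended without 4 and 1. In those fits the log2 values lay between -0.59 and -0.23. Cks1b was at 43.3, 39.8 and 53.1 CPM with the cytokines and at 68.6, 65.2 and 86.3 CPM in medium (-0.69 ± 0.12, adjusted p = 1.0e-04). Cenpa was at 41.6, 39.4 and 49.5 CPM against 79.2, 69 and 81.5 CPM (-0.82 ± 0.14), and Birc5 at 42.1, 33.2 and 55.1 CPM against 68, 66.5 and 84.2 CPM (-0.75 ± 0.14). None of these groups overlapped, as for 23.2% of all genes in that direction. Mki67 fell from 120, 126 and 155 CPM to 83.1, 65.1 and 95.9 CPM (-0.71 ± 0.14), and Cdk1 from 92, 89.3 and 100 CPM to 63.6, 59.5 and 81.3 CPM (-0.46 ± 0.13). The Cdk1 call ended without the second cytokine replicate (-0.37). Top2a was at 122, 96.8 and 141 CPM (-0.52 ± 0.19), a call that ended without any 1 of 5 libraries, with log2 values of -0.57 to -0.39. Ccnb1 (88.7, 83.4 and 127 CPM) and Plk1 (47.1, 35.4 and 59.6 CPM) overlapped their medium libraries and were not called.

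In the fit of all 18 libraries 2 of the 11 helicase and fork genes were called, Uhrf1 (-0.62 ± 0.16) and 2810417H13Rik (-0.52 ± 0.14). The second call ended without the third WT medium replicate (-0.36) or the second cytokine replicate (-0.38). The 6 Mcm genes were not called in that fit. Mcm5 was at 91.7, 79.8 and 127 CPM, Pcna at 107, 97.9 and 118 CPM, Rrm2 at 117, 90.7 and 146 CPM and Tyms at 56.6, 47.3 and 63.8 CPM, all overlapping the medium libraries. Tk1 fell (-0.6 ± 0.14). With the replicate block and only the WT medium and cytokine groups fitted, 7 of the 11 helicase and fork genes and 4 of the 5 nucleotide supply genes fell. Mcm3 (-0.28 ± 0.07), Mcm6 (-0.23 ± 0.07), Mcm7 (-0.28 ± 0.07) and Rrm2 (-0.32 ± 0.08, adjusted p = 0.0053 by edgeR) were called in that fit. Mcm5 (-0.18 ± 0.07, adjusted p = 0.063) and Pcna (-0.16 ± 0.07, adjusted p = 0.083) were not called in it, though each cytokine library lay below the medium library of the same number.

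In G1, Cdk4 fell from 178, 176 and 203 CPM to 126, 127 and 140 CPM (-0.5 ± 0.09, adjusted p = 2.2e-04). Ccnd3 rose from 282, 292 and 288 CPM to 346, 352 and 389 CPM, a 1.26-fold change (0.33 ± 0.08), and on the TPM scale, where the median of all genes moved by -0.12, its value was 0.19 and not called. Ccnd1 was at 14, 17.9 and 17.4 CPM, lower than all medium libraries (-0.55 ± 0.16), a call that ended without the first cytokine replicate (-0.44). Ccnd2 (176, 168 and 159 CPM), Cdk6 (48.1, 52.9 and 50.6 CPM), E2f1 (24.3, 31 and 20.5 CPM) and Rb1 (26.7, 22.1 and 20.8 CPM) were not called. Ccnd2 libraries with the cytokines overlapped those in medium (163, 170 and 140 CPM).

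Cell type markers moved strongly with the cytokines. Dendritic cell markers summed to 1660 to 2300 CPM against 4430 to 10100 CPM in WT medium, macrophage markers to 3060 to 3740 CPM against 2030 to 2160 CPM, and granulocyte precursor markers to 6710 to 9610 CPM against 919 to 1480 CPM. With LPS and the cytokines the sums were 1410 to 1900 CPM, 4170 to 4640 CPM and 6390 to 7510 CPM. Stem and progenitor markers summed to 38.2 to 53 CPM with the cytokines and to 21.2 to 26.5 CPM with LPS and the cytokines. The part of this shift in the levels of the cycle genes was not tested.

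When the cytokines were given with LPS, the cycle genes fell below their level with LPS alone, and Ccnd2 and Ccnd1 had the lowest log2 values of the 50. Of the 50 genes 34 fell and 4 rose, where 40.3% of all genes were called, 21.1% lower and 19.1% higher. The median log2 change was -0.74, a 1.67-fold lower level, against -0.01 over all genes. Of the 38 calls, 30 held when any 1 library was left out. Ccnd2 was at 90.2, 82.1 and 113 CPM with LPS and the cytokines and at 552, 400 and 448 CPM with LPS alone, a 4.91-fold lower level (-2.3 ± 0.13, adjusted p = 2.9e-11). Ccnd1 was at 5.73, 5.59 and 5.93 CPM against 17.3, 29.9 and 22.9 CPM (-2.02 ± 0.19, adjusted p = 2.7e-08). Both lay below every other group of the study. Ccne1 was at 7.97, 6.94 and 6.13 CPM against 24.6, 24 and 22.3 CPM (-1.75 ± 0.15), and Gins2 at 6.45, 4.53 and 5.63 CPM against 15.8, 24.2 and 17.8 CPM (-1.79 ± 0.2). Uhrf1 fell too (-1.63 ± 0.18). Ccnd3 (264, 248 and 261 CPM) was not called, so the D-type cyclins did not move as a block. The kinase Cdk6 (63.4, 57.3 and 55.3 CPM) was not called either.

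The falls on top of LPS reached each of the replication and mitosis groups. Of the 11 helicase and fork genes 8 fell, of 5 nucleotide supply genes 4 and of 6 mitotic cyclin genes 4. Of 9 mitotic kinase and checkpoint genes 7 fell, and of 8 spindle and chromosome genes 7. Among these, the calls of Ccnb2, Aurka and Birc5 ended without 4, 4 and 1 single libraries respectively. Their log2 values in those fits lay between -0.7 and -0.27. Top2a was at 32.2, 32.6 and 23.8 CPM against 80.2, 49.9 and 71.4 CPM (-1.19 ± 0.2), Cdk1 at 15.8, 14.1 and 11.1 CPM against 27, 23.5 and 25.2 CPM (-0.88 ± 0.15), and Mki67 at 58.8, 51.3 and 58.1 CPM against 80.8, 102 and 82.6 CPM (-0.66 ± 0.15). For these 3 genes the groups did not overlap, as for 27% of all genes in that direction. Tyms was at 33.2, 34 and 33 CPM (-0.77 ± 0.13), Pcna at 57.7, 55.3 and 47.8 CPM (-0.39 ± 0.1) and Stmn1 at 15.1, 11.8 and 9.05 CPM (-0.94 ± 0.17). Plk1 (10.5, 9.35 and 7.24 CPM) and Ccnb1 (17.3, 16.1 and 10.4 CPM) were not called. Mcm5 (27.7, 23.8 and 23.4 CPM; -0.56) and Rrm2 (21.6, 19.2 and 12.4 CPM; -0.76) were called, and each call ended without any 1 of 4 libraries, with log2 values of -0.59 to -0.4 and -0.82 to -0.44.

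Against this trend Cdk4 (0.32 ± 0.1), Cdk2 (0.24 ± 0.09), E2f1 (0.54 ± 0.14) and E2f2 (0.63 ± 0.22) rose. E2f1 was at 40.4, 43.9 and 39.5 CPM with LPS and the cytokines, above all other libraries of the study. The calls of Cdk4, Cdk2 and E2f2 ended without 2, 5 and 3 single libraries respectively, with log2 values of 0.26 to 0.28, 0.2 to 0.25 and 0.42 to 0.59 in those fits. Rb1 was at 36.9, 48.6 and 44.5 CPM, within its range with LPS alone.

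**Figure D5:**
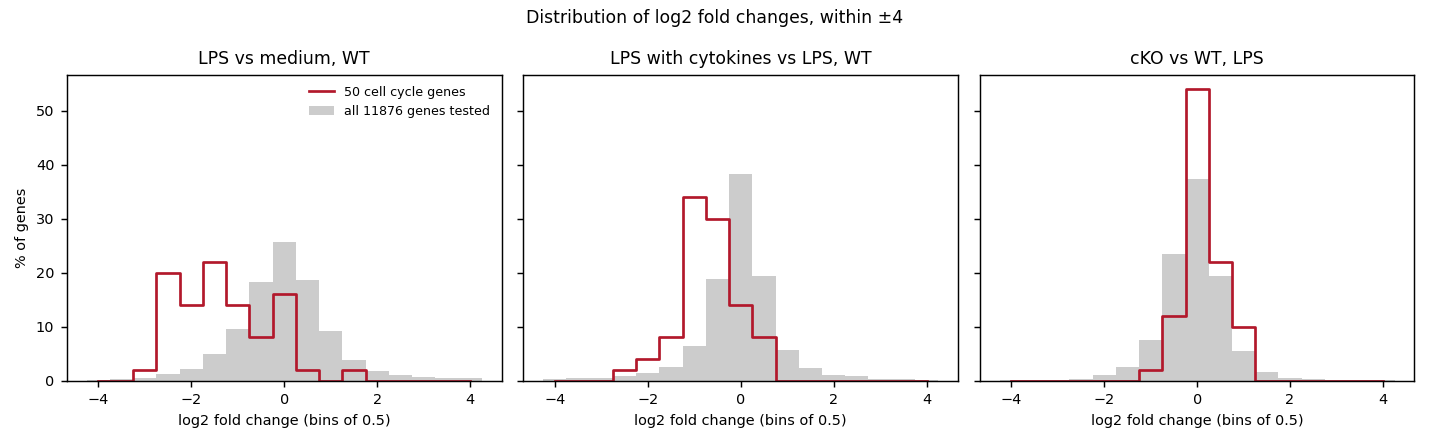
Share of genes (y axis, %) by log2 fold change (x axis, bins of 0.5, within ±4) for the 50 cycle genes (red line) and all 11876 genes tested (grey bars) in 3 comparisons. The red line is shifted to the left for LPS against medium (median -1.37) and for the cytokines added to LPS (median -0.74), and lies near 0 for cKO against WT with LPS (median 0.14).

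LPS given to cells that also had the cytokines lowered nearly all of the set. Compared with the cytokines alone, 46 of the 50 genes fell and 2 rose, where 46.9% of all genes were called, 23.1% lower and 23.9% higher. The median log2 change was -1.83, a 3.55-fold lower level, against 0 over all genes, and 47 of the 48 calls held whichever library was left out. Cks1b was at 8.24, 8.38 and 7.84 CPM against 43.3, 39.8 and 53.1 CPM with the cytokines alone (-2.47 ± 0.14, adjusted p = 1.2e-10). 2810417H13Rik was at 13.2, 12.1 and 9.35 CPM against 79.6, 65 and 101 CPM (-2.82 ± 0.16), Stmn1 at 15.1, 11.8 and 9.05 CPM against 81.2, 65.8 and 93.3 CPM (-2.73 ± 0.16), and Cdk1 at 15.8, 14.1 and 11.1 CPM against 63.6, 59.5 and 81.3 CPM (-2.32 ± 0.14). These are among the lowest levels of the study. Rb1 (0.9 ± 0.15) and E2f1 (0.71 ± 0.14) rose, and Cdk6 (0.22 ± 0.16) and Ccne2 (-0.12 ± 0.16) were not called. Cenpa fell (-0.39 ± 0.15), and its call ended without the third cytokine replicate (-0.29) or the third replicate with LPS and the cytokines (-0.24).

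Whether the cytokines changed the response to LPS was tested as an interaction in WT cells. It was called for 11 of the 50 genes, 9 lower and 2 higher, against 12.1% and 8.88% of all genes. With upper-quartile scaling the split was 7 lower and 3 higher, and on the TPM scale 6 and 3. Ccnd2 had the largest value: it rose 2.96-fold with LPS in medium and fell with LPS in the cytokines (-0.82 ± 0.12), an interaction of -2.38 ± 0.17 (adjusted p = 1.6e-09). The interaction was also lower for Ccne1 (-1.42 ± 0.2) and Ccnd1 (-1.47 ± 0.25). The LPS change of Ccnd1 in medium was -0.04 ± 0.16 and not called. Cdk4 fell less in the cytokines (-0.5 ± 0.09, against -1.33 ± 0.1 in medium), an interaction of 0.83 ± 0.13 (adjusted p = 1.1e-04), and E2f1 rose by 0.67 ± 0.2 more, a call that ended without the third cytokine replicate (0.54). Gins2 (-1.33), Uhrf1 (-1.01), Mcm6 (-0.84) and Tyms (-0.65) were lower as well. The calls of Mcm3 (-0.83) and Aurkb (-0.66) ended without 9 and 5 of the 12 libraries respectively, each left out alone, with log2 values of -0.89 to -0.62 and -0.65 to -0.5. No mitotic cyclin and no spindle gene was called. For those groups the median interaction values were -0.34 and -0.37.

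Other genes of the cycle, a list of 110 of which 108 could be tested, were counted in the same comparisons. With LPS in WT cells 82 fell and 11 rose, or 86.1% against 58.7% of all genes, and in cKO cells 81 fell and 10 rose, or 84.3% against 64.1%. With the cytokines alone 46 fell and 3 rose, or 45.4% against 35.2%. With the cytokines added to LPS 57 fell and 4 rose, or 56.5% against 40.3%, and with LPS added to the cytokines 82 fell and 8 rose, or 83.3% against 46.9%. The count for the cytokines alone, 49, was 27 without the second cytokine replicate and 32 without the third WT medium replicate. In WT cells with LPS the falls included Foxm1 (-2.03 ± 0.21), the activator of mitotic genes, Gmnn (-1.18 ± 0.13), the licensing inhibitor geminin, the polymerase subunit Pold1 (-1.7 ± 0.11), the checkpoint protein Bub3 (-1.09 ± 0.11) and Cdca3 (-2.09 ± 0.15), a trigger of mitotic entry. Lin54, a DNA-binding subunit of the DREAM complex, a regulator of cycle genes, rose (1.44 ± 0.14). Of 36 other mitosis and cytokinesis genes 32 fell and 1 rose. That was Pttg1, securin, named here after its value was seen, which was at 19.3, 16.9 and 17.9 CPM in medium and at 53.1, 87.6 and 66 CPM with LPS.

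CDK inhibitors, of which 6 of 8 could be tested, moved in both directions with LPS in WT cells, where 3 rose and 1 fell. Cdkn1a, which encodes p21, was at 356, 383 and 276 CPM in WT medium and at 1600, 1550 and 1620 CPM with LPS, a 4.69-fold rise (log2 2.23 ± 0.12, adjusted p = 4.6e-12). With the cytokines it was at 466, 413 and 330 CPM, and with LPS and the cytokines at 938, 908 and 928 CPM. The cytokines thus lowered it in the presence of LPS (-0.78 ± 0.12), and the interaction was called (-1.03 ± 0.17). Cdkn1b, p27, rose with LPS in WT (1.64 ± 0.28) and in cKO cells (2.71 ± 0.28). Cdkn2b, p15, fell with the cytokines, both in medium (-2.18 ± 0.24) and in LPS (-2.02 ± 0.23). Cdkn3, a phosphatase of CDK proteins that is itself made in cycling cells, fell with LPS in WT (-2.29 ± 0.21) and with the cytokines (-0.86 ± 0.18). Cdkn2d, p19, was at 43.7, 42 and 36.9 CPM in WT medium and at 62.2, 51.9 and 63.2 CPM with the cytokines (0.53 ± 0.11). Cdkn2c, p18, was at most at 4 CPM in any library, and fell with LPS in cKO cells (-1.76 ± 0.4) and with the cytokines added to LPS (-1.72 ± 0.48).

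Between genotypes Cdkn1a was higher in cKO in both conditions. It was at 762, 626 and 691 CPM in cKO medium (1.03 ± 0.12 over WT, adjusted p = 4.7e-06) and at 2280, 2230 and 2240 CPM in cKO with LPS (0.51 ± 0.12, adjusted p = 0.0026), with no overlap in either. On the TPM scale the second difference was 0.15 and not called. Over all genes 20.1% in medium and 22.8% with LPS had all 3 cKO libraries above the WT libraries. Cdkn2d was higher in cKO in medium (0.8 ± 0.11) and with LPS (0.63 ± 0.11). Of the 6 tested CDK inhibitors 3 were higher and 0 lower in cKO medium, the third being Cdkn2c (1.14 ± 0.34). With LPS 3 were higher and 1 lower, where Cdkn1b was higher (0.79 ± 0.26) and Cdkn2b lower (-0.74 ± 0.22). The calls of Cdkn2c, Cdkn1b and Cdkn2b ended without 3, 3 and 2 single libraries respectively. Of the 108 genes 12 were higher and 3 lower in cKO medium, or 13.9%, and 16 were higher and 6 lower in cKO with LPS, or 20.4%, both below the share over all genes. The medium count, 15, was 9 without the first cKO medium replicate. The LPS count, 22, was 11 without the second cKO LPS replicate, 13 without the third WT LPS replicate, 14 without the first of either group, and 36 on the TPM scale. With LPS the largest differences included the condensin subunit Smc4 (288, 256 and 255 CPM in cKO, 112, 145 and 120 CPM in WT; 1.08 ± 0.12, adjusted p = 2.6e-06), Pttg1 (101, 133 and 118 CPM in cKO; 0.77 ± 0.16), the CDK1-inhibiting kinase Wee1 (1.56 ± 0.29) and Lin54 (1.04 ± 0.13). The genotype interaction was called for 7 of the 108, 4 higher and 3 lower, or 6.48% against 17.4% of all genes. The 3 lower were the CDK inhibitors Cdkn1a (-0.53 ± 0.17), Cdkn2b (-1.04 ± 0.3) and Cdkn2c (-1.68 ± 0.56). Their calls ended without 8, 2 and 10 single libraries respectively. The interaction count, 7, was 3 without the third WT LPS replicate, 4 without the first WT LPS replicate or any 1 cKO LPS replicate, and 16 on the TPM scale. Smc4 (0.71 ± 0.17) kept its call without any 1 library but not on the TPM scale (0.43).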

How the data were processed

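RNA of 18 libraries was quantified by the authors with RSEM on mm10 after bcl2fastq, per the submitters' processing notes; versions and strandedness are not given in the sources used here. The deposited values are RSEM expected counts per gene and TPM, which is scaled to length and to a fixed total per library,, per the file headers. The labels do not say whether replicates came from separate animals or cultures, though Xist and Ddx3y set the first cKO replicates apart by sex. The p-values therefore measure the spread between these samples. The treatment protocol mentions more replicates than the 3 libraries per group used here.

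Expected counts were rounded and tested with edgeR 4.0.16 (robust quasi-likelihood F-test, TMM factors, filterByExpr, all 18 libraries in 1 fit; R 4.3.3), with Benjamini-Hochberg adjustment over the 11876 tested genes within each of 7 comparisons and 2 interactions, and calls at an adjusted p under 0.05. SE is the log2 change divided by the square root of F. CPM uses TMM-scaled library sizes. Alternatives were DESeq2 1.42.0, limma 3.58.1 on log2(TPM + 1) and log2(TPM + 0.1), other scalings and filters, a replicate block and single libraries left out. The fit was tested on simulated data. The members and lists were chosen with earlier results of these data known. Single-library values are given for 16 fixed genes and for the 4 called genes with the smallest p in a comparison; other pathway genes are named from the smallest p values in a list, with all tested CDK inhibitors. Same-numbered samples deviated together in WT medium and WT cytokines (r 0.35, 0.21 and 0.44 over 8118 genes) and in 1 other of 15 pairs of groups, which is not compared here. Replicates differed beyond sampling noise (chi-square per degree of freedom 3.64 to 36.3). Promoters came from RefSeq GRCm38.p6.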

Additional observations from a re-analysis of the deposited data

Results flagged for a closer look

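The response to LPS differed between WT and cKO cells, by edgeR's interaction test, for 8 of the 50 genes, 16% against 17.4% of all genes tested. The log2 difference (cKO minus WT) was 1.09 for Ccnd1, 0.91 for Cks2, 0.89 for Ccne2, 0.85 for Mcm5, 0.74 for Ccnb2, 0.62 for Cenpa, 0.59 for Pcna and -0.43 for Cdk2, with adjusted p between 0.0037 and 0.047. The calls of Mcm5, Ccnb2, Cenpa and Cdk2 ended when some single libraries were left out, and 4 of the 8 held in every such fit.

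The response to LPS differed between WT cells with and without the cytokines for 11 of the 50 genes, 22% against 20.9% of all genes tested. The log2 difference (with minus without the cytokines) was -2.38 for Ccnd2, -1.47 for Ccnd1, -1.42 for Ccne1, -1.33 for Gins2, -1.01 for Uhrf1, -0.84 for Mcm6, -0.83 for Mcm3, -0.66 for Aurkb, -0.65 for Tyms, 0.83 for Cdk4 and 0.67 for E2f1, with adjusted p between 1.6e-09 and 0.047. The calls of E2f1, Mcm3 and Aurkb ended when some single libraries were left out, and 8 of the 11 held in every such fit.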

How the results depend on the processing

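Of 240 called gene and comparison pairs, 240 kept their call with at least 5 CPM required in 3 libraries, 236 with RLE factors or DESeq2, 233 with upper-quartile factors, 235 with no count filter, 238 with the replicate block and 216 on log2(TPM + 1), where 4 changed sign. Leaving out 1 library kept 1407 of 1554 calls. For cKO against WT in medium, 8 of the 50 genes were called, 13 with no count filter, and 5 with the replicate block and only the groups compared, an alternative chosen after seeing the data. For cKO against WT with LPS the count was 12, then 22 and 23 on log2(TPM + 1) and log2(TPM + 0.1), and 7 with the first cKO library of each treatment left out. For the cytokines it was 26, and 40 with the replicate block and only the groups compared. For the genotype interaction it was 8, and 4 with the first cKO library of each treatment left out. The causes were not tested. With 1 library left out the counts ran from 6 to 9 (cKO against WT, medium), 7 to 12 (with LPS), 40 to 42 (LPS in WT), 46 to 46 (LPS in cKO), 14 to 31 (cytokines), 32 to 36 (cytokines added to LPS), 47 to 48 (LPS added to the cytokines), 4 to 10 (genotype interaction) and 8 to 16 (cytokine interaction).

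With LPS in WT cells, values near 0 changed sign. Without the third WT medium replicate, alone or with the third cytokine replicate, Ccnd1 was 0 and 0, Ccne2 0.09 and 0.09, Gins2 0.04 and 0.04, Tyms 0.06 and 0.06, and E2f1 -0.04 and -0.04. Without the first WT LPS replicate Ccnd1 was 0.13, and E2f1 was -0.02 without WT LPS replicate 2 and -0.01 without WT LPS replicate 3. The ranges with 1 library left out were -0.26 to 0.13 for Ccnd1, -0.07 to 0.09 for Ccne2, -0.04 to 0.13 for E2f1, -0.33 to 0.04 for Gins2 and -0.17 to 0.06 for Tyms. On the TPM scales Cdk6 was -0.11 and -0.11 and E2f1 -0.21 and -0.22, and with upper-quartile factors E2f1 was -0.09. With LPS in cKO cells the TPM scales gave Rb1 -0.08 and -0.09, Gins2 -0.02 and -0.02, Tyms -0.27 and -0.28, Cks2 -0.02 and -0.02, and Cenpa -0.07 and -0.07. For LPS added to the cytokines Ccne2 ran from -0.25 to 0.01, the last without the third replicate given both treatments. The lowest count of any of the 50 genes was 21, and 3 libraries per group limit the precision.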
